A study of Mus musculus with 5 samples.

Results

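The genes followed were 10 of the muscle Z-disc: the alpha-actinins Actn2 and Actn3, the calsarcins Myoz1, Myoz2 and Myoz3, and Myot, Ldb3, Tcap, Csrp3 and Ankrd2. They were chosen by name, with earlier results of these data known, and all 10 were found among the 17015 genes of the deposited table. RNA was sequenced from the tibialis anterior (TA), a fast-twitch muscle of the lower leg, of sedentary male mice 8 weeks of age. The groups held 3 WT control libraries and 2 skmNrip1-/- libraries. The skmNrip1-/- animals carried Nrip1 fl/fl alleles, made on C57BL/6J, and a Cre recombinase driven by the myogenin promoter, which is active in the skeletal muscle lineage. Controls were littermates genotyped as lacking Cre. Nrip1 encodes RIP140, a corepressor of nuclear receptors. Values are FPKM by name, by definition fragment numbers scaled to transcript length and library size. How they were computed is not given, so comparisons of levels between genes rest on the length scaling of that definition. In the deposited values the median ratio of genes to their geometric mean was 1.002 in each library. Their sums ran from 969144.4 FPKM in WT control replicate 3 to 1288037.5 FPKM in skmNrip1-/- replicate 1. The libraries were thus already matched to each other by that median. The number of fragments behind them is unknown, and no counting error can be given.

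The Z-disc is the border between sarcomeres, where thin filaments of opposite polarity are crosslinked by alpha-actinin and the ends of titin are anchored. Around this core sit adaptor proteins that bind alpha-actinin, and LIM and ankyrin-repeat proteins that also occur in the nucleus and respond to load. Several of these families have a fast-fiber form and a form of slow fibers and heart, so their RNA levels follow the fiber types of a muscle.

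The gene targeted in this design was read first, as a check of the labels. In the WT control libraries Nrip1 was at 4.64, 7.69 and 6.55 FPKM. The libraries labelled skmNrip1-/- had 25.3 and 22.5 FPKM. It was therefore higher, not lower, in the libraries labelled as knockout, with a log2 fold change of 1.94 and an adjusted p of 0.0261 (limma). That call was lost without WT control replicate 3 and without either skmNrip1-/- library. The log2 fold change was 1.74 to 2.09 with 1 library left out. The FPKM value covers the whole gene and does not measure the floxed exon alone. Per the methods of the study, exon 4 holds both the start and the stop codon, with loxP sites before it and beyond the 3′-UTR. The floxed part thus includes the whole coding sequence, which is 3483 bases in the longest coding transcript of 7868 bases. The cause of the higher value was not tested, so every direction below refers to the labels as deposited. Mb, which encodes myoglobin and was named after its values were seen, was at 4522, 4329 and 5157 FPKM in WT control and at 7764 and 7664 FPKM in the libraries labelled skmNrip1-/- (adjusted p = 0.16, limma). Skeletal muscle fiber markers summed to 58624 to 82156 FPKM in the WT control libraries and to 58301 to 60949 FPKM in the libraries labelled skmNrip1-/-. Summed markers of heart, fat, endothelium, macrophages, fibroblasts, smooth muscle and nerve overlapped between the groups, and those of erythroid cells did not, at 511 to 764 FPKM against 827 to 996 FPKM. The heart sum rested on the 3 of 6 listed markers that were measured, at 7.19 to 12.4 FPKM in WT control and 6.97 to 9.77 FPKM in the others. Genes of the mitochondrial genome took 45.4% to 50.7% of all FPKM in WT control libraries and 58.6% to 60.9% in those labelled skmNrip1-/-.

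Between the groups, none of the 10 Z-disc genes passed the test, whose thresholds were 0.05 for the adjusted p and 1.2 for the fold change in either direction. Of all 12148 genes tested, 0.453% passed it, 45 higher and 10 lower in the libraries labelled skmNrip1-/-. All 10 members were above the minimum mean of 0.5 FPKM used for testing. At an unadjusted p of 0.05 or less there were 4 members, Actn3, Myoz2 and Ldb3 on the lower side and Myot on the higher, where the background over all genes was 11.9%. In the same 4 genes the libraries of the groups did not overlap, beside 30.2% of all genes tested. Both counts rest on the same values. Since the members were chosen with earlier results of these data known, the counts are description and not a test. The median log2 fold change of the members was -0.26, and that of all genes tested was -0.00, a value fixed by the scaling of the deposited values. After rescaling to TPM these medians were -0.56 and -0.29. They were -0.19 and 0.07 under TPM without the genes of the mitochondrial genome. With so few libraries the p-values measure the spread between these samples only.

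**Figure D1:**
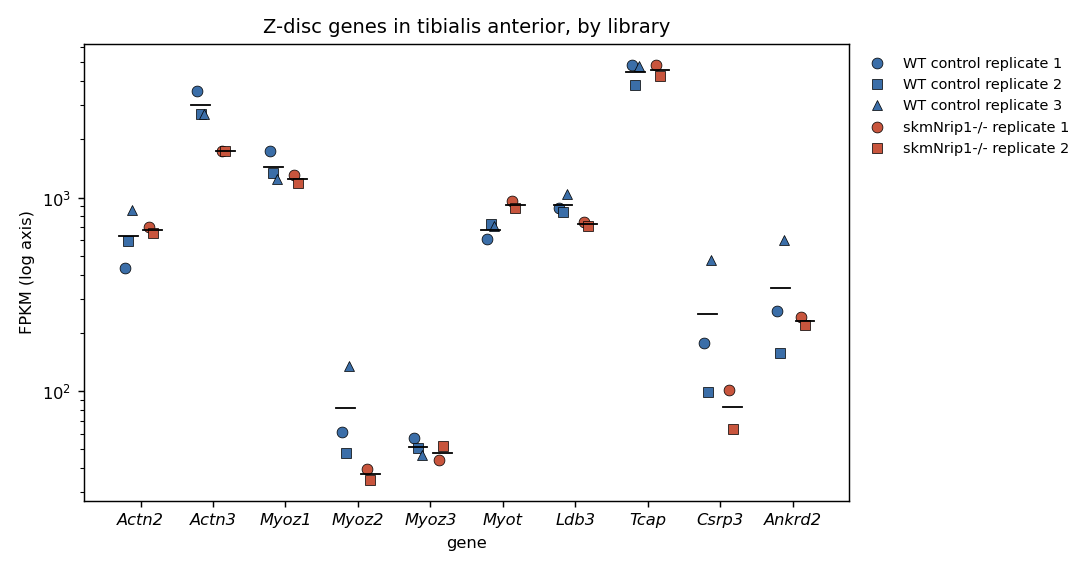
FPKM of each Z-disc gene (log axis) in the 5 libraries, 1 point per library, with the 3 WT control and the 2 skmNrip1-/- libraries in separate colors. Tcap and Actn3 lay highest, and the WT control points of Csrp3 and Ankrd2 were spread most widely.

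Actn3, the alpha-actinin of fast glycolytic fibers, stood lower in both libraries labelled skmNrip1-/-. WT control libraries had 3558, 2712 and 2701 FPKM of it, and those labelled skmNrip1-/- had 1739 and 1744 FPKM. All WT control values lay above both others. The means were 2990.3 ± 492 FPKM (SD, n = 3) and 1741 ± 3.45 FPKM (SD, n = 2). The log2 fold change was -0.77 (SE 0.17, 95% interval -1.17 to -0.36), with an adjusted p of 0.169 from limma and a range of 0.0199 to 0.724 over the alternatives. Among the alternatives run, the gene passed the test only after rescaling to TPM, where its log2 fold change was -1.07, and that scaling moved the median of all genes by -0.29. After rescaling to TPM without the genes of the mitochondrial genome the log2 fold change was -0.69.

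Actn2, the alpha-actinin found in all fiber types and in heart, did not separate the groups. Its values were 430.2, 598.3 and 861.5 FPKM in the WT control libraries and 706.6 and 659.6 FPKM in those labelled skmNrip1-/-. The lowest and the highest of the 5 libraries were both WT controls. Its log2 fold change was 0.17 (95% interval -0.48 to 0.83, adjusted p = 0.864, limma), and it was -0.073 without WT control replicate 1. Under TPM it was -0.13, a move of the size of the -0.29 that this scaling gave the median of all genes. Without WT control replicate 3 it was 0.43.

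Actn3 made up 89.2%, 81.9% and 75.8% of the summed alpha-actinin FPKM (Actn2 plus Actn3) in the WT control libraries and 71.1% and 72.6% in those labelled skmNrip1-/-. This share does not depend on the scaling between libraries. It was lower by 10.5 percentage points, since the means were 82.3% ± 6.71 (SD, n = 3) and 71.8% ± 1.03 (SD, n = 2). The shares did not overlap between the groups, and any such values give an exact one-sided permutation p of 0.1. That is the smallest value that 3 libraries against 2 allow. Both sides were computed, and the side given is that of the observed difference, so this p adds nothing to the values. The ratio of Actn3 to Actn2 was 8.27, 4.53 and 3.14 in WT control, against 2.46 and 2.64. The spread within WT control thus exceeded the gap between its lowest library and the others. Fast fiber markers, a list of 6 genes, summed to 47869 to 70977 FPKM in WT control and 43444 to 45742 FPKM in the libraries labelled skmNrip1-/-. In Tnnc2, Myl1 and Mylk2 the groups did not overlap, while in Pvalb, Tnni2 and Myh4, the myosin heavy chain of 2B fibers, they overlapped. Myh4 was at 8478, 7851 and 6839 FPKM in WT control against 6416 and 6909.9 FPKM. The part of these genes in the Actn3 values was not tested, and in whole muscle fewer fibers of a type and less RNA per fiber cannot be told apart.

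The extent of identical sequence bears on how reads are assigned between the alpha-actinins, and it was small. On GRCm38, Actn3 lies on the minus strand at chr19:4861216-4877909 and Actn2 on the minus strand at chr13:12269426-12340760. A comparison of their longest coding transcripts found 1 stretch of 31 bases or more that was identical in both. It is shown as the only run of that length that the pair had in common, and it is shorter than the reads that the methods of the study give for RNA-seq.
Actn2 and Actn3 shared coding stretch: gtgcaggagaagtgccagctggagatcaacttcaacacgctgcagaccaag
The stretch is 51 bases long and covers bases 1021 to 1071 of the Actn3 coding sequence and 1003 to 1053 of that of Actn2, counted from the start codon. Of the 31-base words in the Actn3 transcripts, 1.01% also occur in transcripts of other genes, against 1.62% for Actn2.

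**Figure D2:**
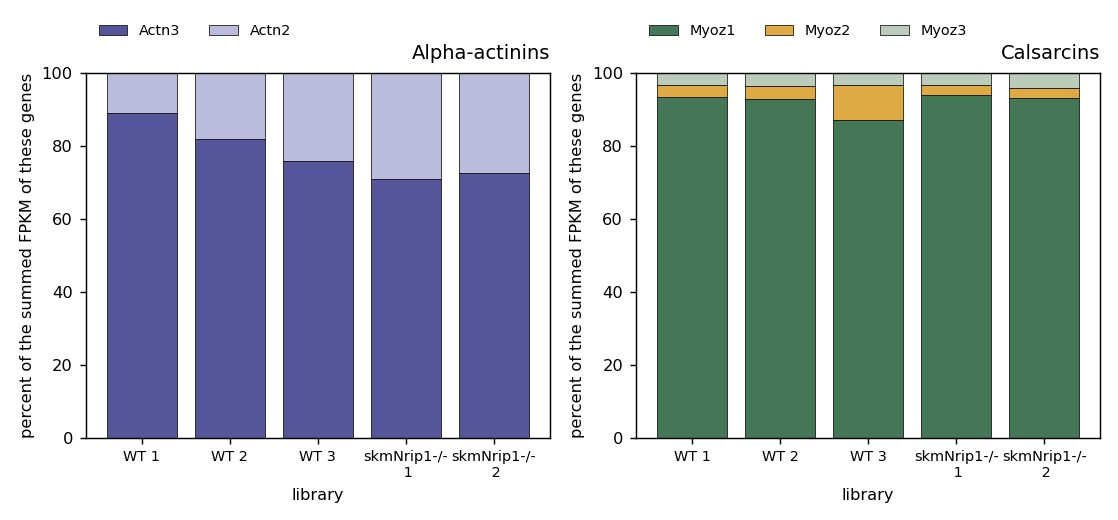
Percent of the summed FPKM (vertical axes, 0 to 100) taken by Actn3 and Actn2 (left) and by Myoz1, Myoz2 and Myoz3 (right) in each library. The Actn3 share lay between 75.8% and 89.2% in WT control and was 71.1% and 72.6% in those of skmNrip1-/-, and the Myoz2 share stood out in WT control replicate 3 at 9.50%.

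The calsarcins tether the phosphatase calcineurin to alpha-actinin. Myoz1, the main form of fast fibers, was at 1734, 1332 and 1240.0 FPKM in WT control and 1304 and 1185 FPKM in the libraries labelled skmNrip1-/-. The groups overlapped (log2 fold change -0.19, adjusted p = 0.743, limma), and the log2 fold change was -0.049 without WT control replicate 1. Myoz3, another fast-fiber form, was measured at 57.5, 50.9 and 46.5 FPKM against 43.8 and 51.9 FPKM. These groups overlapped as well, and the log2 fold change of -0.11 (adjusted p = 0.817, limma) became 0.014 without skmNrip1-/- replicate 1.

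Myoz2, the form of slow fibers and heart, was at 61.3, 48.0 and 135 FPKM in WT control and at 39.8 and 34.7 FPKM in the libraries labelled skmNrip1-/-. Both of the latter lay below every WT control library, and WT control replicate 3 lay far above all others. Its log2 fold change was -0.98 (SE 0.40, 95% interval -1.95 to -0.01, adjusted p = 0.414, limma) and was -0.55 without WT control replicate 3. Myoz2 made up 3.31%, 3.36% and 9.50% of the calsarcin FPKM in WT control and 2.87% and 2.73% in the libraries labelled skmNrip1-/-. The difference of -2.59 percentage points was -0.535 without WT control replicate 3. Its exact one-sided permutation p was 0.1, again the smallest possible and on the side of the observed difference. These shares did not overlap between the groups either, so this p too was fixed and adds nothing to them.

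Myotilin, encoded by Myot, bundles actin and binds alpha-actinin and filamin C. It was the member that stood highest relative to WT control, at 955.2 and 879.6 FPKM in the libraries labelled skmNrip1-/- against 609.9, 727.1 and 709.2 FPKM. Both libraries lay above every WT control. Its estimated log2 fold change was 0.43 (SE 0.13, 95% interval 0.12 to 0.74), and the adjusted p was 0.284 (limma), with 0.204 to 0.806 over the alternatives.

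Ldb3, also called Cypher or ZASP, joins a PDZ domain that binds alpha-actinin to LIM domains. It was at 878.6, 836.8 and 1041 FPKM in WT control and at 744.8 and 709.2 FPKM in the libraries labelled skmNrip1-/-, with no overlap. The log2 fold change was -0.33 (95% interval -0.66 to -0.00, adjusted p = 0.417, limma).

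Tcap, or telethonin, caps the ends of titin molecules and had the highest FPKM of the members in every library. It was at 4822, 3799.9 and 4760.2 FPKM in WT control and 4852 and 4232 FPKM in the libraries labelled skmNrip1-/-. The groups overlapped, and the log2 fold change of 0.03 (95% interval -0.39 to 0.45, adjusted p = 0.969, limma) became -0.27 under TPM, by about the -0.29 that the median of all genes moved. Tcap took 36.7% to 38.3% of the summed FPKM of the members in WT control and 43.3% to 45.2% in the libraries labelled skmNrip1-/-, while the Actn3 share of that sum was 21.5% to 28.3% in the former and 16.2% to 17.8% in the latter.

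**Figure D3:**
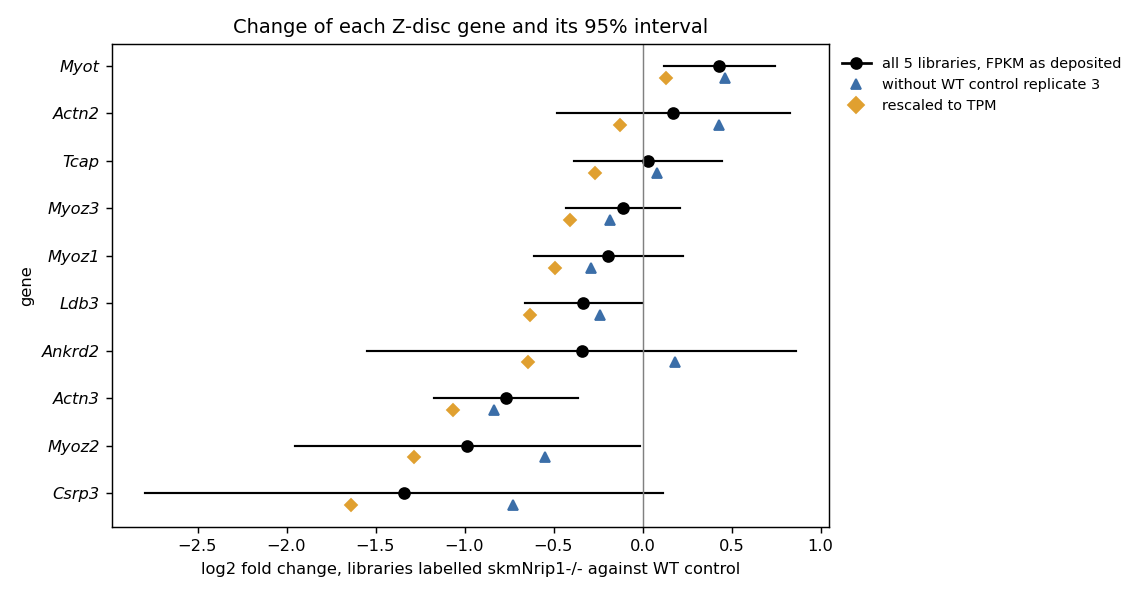
Log2 fold change of each Z-disc gene (horizontal axis, libraries labelled skmNrip1-/- against WT control). Circles are the fit of all 5 libraries with its 95% interval, triangles leave out WT control replicate 3 and diamonds are rescaled to TPM. Csrp3 and Ankrd2 had the widest intervals, and the Ankrd2 value changed sign without that library.

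Csrp3, the muscle LIM protein of slow fibers and heart, was at 177, 99.1 and 478 FPKM in WT control and 101 and 63.6 FPKM in the libraries labelled skmNrip1-/-. The groups overlapped, and the WT control libraries alone differed by up to 4.82-fold. The log2 fold change was -1.34 (SE 0.61, 95% interval -2.80 to 0.11, adjusted p = 0.461, limma). Without WT control replicate 3 it was -0.72.

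Ankrd2, an ankyrin-repeat protein that binds titin and is induced by stretch, was at 259.7, 157 and 602.5 FPKM in WT control and 240.4 and 218.7 FPKM in the libraries labelled skmNrip1-/-. Both of these lay inside the WT control range, which spanned 3.84-fold. The log2 fold change of -0.34 (95% interval -1.55 to 0.86, adjusted p = 0.851, limma) became 0.18 without WT control replicate 3.

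WT control replicate 3 had the highest value of the 5 libraries for Actn2, Myoz2, Ldb3, Csrp3 and Ankrd2, which is 5 of the 10 members, beside 18.1% of all genes tested. In Csrp3, Ankrd2 and Myoz2 it was at least 1.5-fold above every other library. In that library 70 genes, or 0.576% of those tested, stood apart by this measure. Over the 5 libraries this share ran from 0.379% in skmNrip1-/- replicate 1 to 0.922% in WT control replicate 1. No member stood apart so in any other library. The SD of log2 values within WT control was 1.15 for Csrp3, 0.98 for Ankrd2 and 0.78 for Myoz2, beside a median of 0.18 over all genes tested. Without these 3 genes the median log2 fold change of the members was -0.11.

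Among other genes, named here after their values were seen, the same library was highest in Fhl1, a LIM protein of the sarcomere, at 839, 1001 and 1799 FPKM in WT control and 874 and 687 FPKM in the libraries labelled skmNrip1-/-. The small heat shock gene Hspb7 was at 188, 154 and 385 FPKM against 195 and 199 FPKM. Myh2, the myosin heavy chain of fast 2A fibers, was at 223, 333 and 1102 FPKM against 363 and 406 FPKM. Slow fiber markers, a list of 6 genes, summed to 104, 139 and 307 FPKM in WT control and 113 and 115 FPKM in the libraries labelled skmNrip1-/-. Most of the WT control sum was Myl3, at 89.6, 124 and 285 FPKM. Besides Myl3, only Tnni1 of the 6 was highest in WT control replicate 3, and Myl2, Tnnc1, Tnnt1 and Myh7 were highest in skmNrip1-/- replicate 1. No marker was at 0 in any library. Myh7, the slow myosin heavy chain, stayed low in all 5, at 0.659, 0.648 and 0.751 FPKM against 1.72 and 0.449 FPKM. Of 5 macrophage markers, 4 were also highest in WT control replicate 3, and the list summed to 8.71, 13.3 and 19.0 FPKM in WT control against 14.0 and 10.8 FPKM. The part of these fiber type and macrophage genes in the Csrp3, Ankrd2 and Myoz2 values was not tested.

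**Figure D4:**
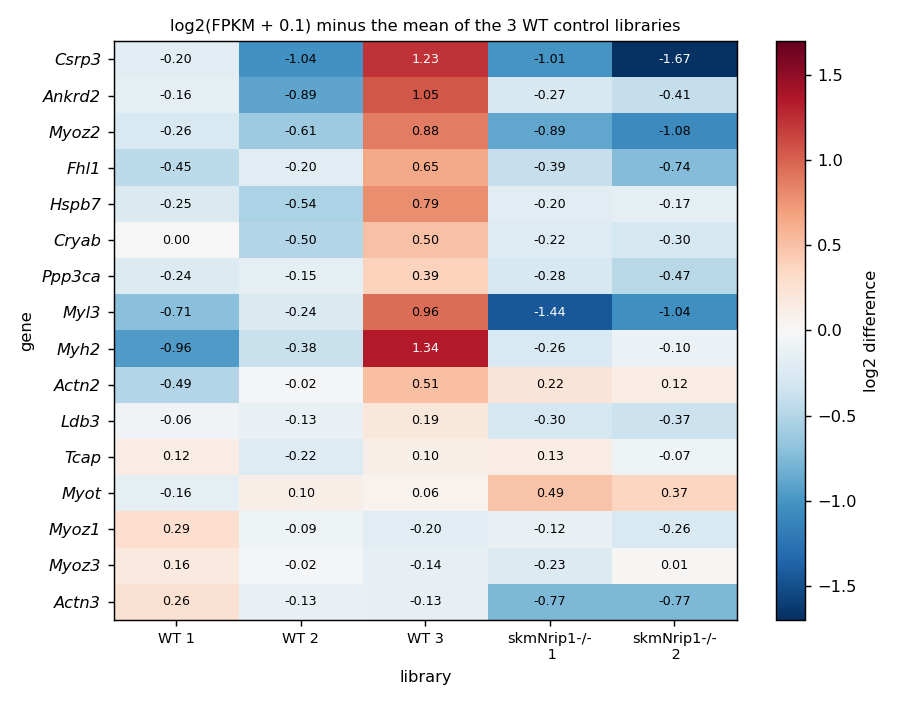
Log2(FPKM + 0.1) of each gene (rows) minus its mean over the 3 WT control libraries, by library (columns), with red above and blue below that mean. WT control replicate 3 is at 1.23 for Csrp3, 1.05 for Ankrd2 and 0.88 for Myoz2, and Actn3 is at -0.77 in both libraries labelled skmNrip1-/-.

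The promoters of the 3 members that stood apart together in WT control replicate 3 are printed so that their sequence can be read beside that pattern. Each is the 250 bases before a RefSeq transcription start on GRCm38.p6, read 5′ to 3′ on the strand of the gene, and capitals mark the motif matches. Csrp3 is at chr7:48848052-48848301 (minus strand), Ankrd2 at chr19:42035777-42036026 (plus strand) and Myoz2 at chr3:123034988-123035237 (minus strand).
Csrp3: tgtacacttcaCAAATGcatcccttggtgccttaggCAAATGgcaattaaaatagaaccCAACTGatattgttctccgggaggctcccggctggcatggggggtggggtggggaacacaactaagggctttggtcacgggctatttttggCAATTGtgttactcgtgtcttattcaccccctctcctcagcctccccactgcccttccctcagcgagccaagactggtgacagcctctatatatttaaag
Ankrd2: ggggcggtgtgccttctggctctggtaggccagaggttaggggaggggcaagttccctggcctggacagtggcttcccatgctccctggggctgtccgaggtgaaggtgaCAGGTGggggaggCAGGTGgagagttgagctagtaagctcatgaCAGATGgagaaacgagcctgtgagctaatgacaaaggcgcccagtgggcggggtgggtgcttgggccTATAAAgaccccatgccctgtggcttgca
Myoz2: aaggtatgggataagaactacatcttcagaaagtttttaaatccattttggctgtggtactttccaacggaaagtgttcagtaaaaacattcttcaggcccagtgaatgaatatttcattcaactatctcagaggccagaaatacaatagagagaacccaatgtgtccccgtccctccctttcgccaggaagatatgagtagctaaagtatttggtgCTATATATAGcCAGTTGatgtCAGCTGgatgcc
Both strands were searched for 6 motifs. The E-box (CANNTG), the core bound by myogenic basic helix-loop-helix factors, matched 4 times in Csrp3, 3 times in Ankrd2 and at 2 places in Myoz2, and 66.2% of 32851 RefSeq promoter windows held it. A TATA box (TATAAA) lay 29 to 24 bases before the start of Ankrd2, and 12.4% of windows held one. The MEF2 consensus matched in Myoz2, 33 to 24 bases before the start, and in 1.69% of windows. None of these 3 windows matched MCAT (CATTCC, 12.6% of windows), the ERR half-site (TCAAGGTCA, 0.39%) or the CArG box (1.47%). No single motif was found in all 3 windows apart from the E-box.

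Other proteins of the Z-disc and its neighborhood were read from 5 lists of 52 genes, 50 of which were tested, with Nebl and Fhl2 under the minimum level. None passed the test, and 7 had an unadjusted p of 0.05 or less, 2 on the higher and 5 on the lower side, where the background over all genes was 11.9%. In 18 of the 50 the groups did not overlap, beside 30.2% of all genes tested. Their median log2 fold change was -0.10. WT control replicate 3 was the highest library in 22 of the 50.

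Among actin-crosslinking and PDZ-LIM proteins the median log2 fold change was -0.07. The lowest p belonged to Pdlim7, a PDZ-LIM relative of Ldb3, at 294, 181 and 229.7 FPKM in WT control and 172 and 152 FPKM in the libraries labelled skmNrip1-/- (adjusted p = 0.401, limma). The nonmuscle alpha-actinins Actn1 and Actn4 were at 3.81 to 4.86 and 15.9 to 23.7 FPKM over the 5 libraries. In the families of Ankrd2 and Csrp3, values ran from a log2 fold change of -0.43 for Csrp2 (adjusted p = 0.568, limma) to 0.04 for Ankrd23 (adjusted p = 0.947, limma), which was -0.26 under TPM, where the median of all genes moved by -0.29. The Csrp2 value rested on 1 library, since it was -0.027 without skmNrip1-/- replicate 2 and -0.82 without skmNrip1-/- replicate 1.

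Intermediate filament, LIM and chaperone proteins had a median of -0.21. The small heat shock gene Hspb1 had a log2 fold change of -0.49 (adjusted p = 0.397, limma). Bag3, a cochaperone that clears damaged filamin, was at 46.4, 49.2 and 53.4 FPKM in WT control and 65.6 and 61.7 FPKM in the libraries labelled skmNrip1-/- (adjusted p = 0.281, limma). The groups did not overlap in Hspb1 or Bag3. In Hspb1 they nearly met, at 126.64 FPKM in WT control replicate 2 and 126.59 FPKM in skmNrip1-/- replicate 1.

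Calcineurin subunits and regulators, the partners of the calsarcins, had a median of 0.03. The calcineurin regulator Rcan3 was at 1.59, 1.72 and 1.66 FPKM in WT control and 2.43 and 2.33 FPKM in the libraries labelled skmNrip1-/- (adjusted p = 0.271, limma). Titin, obscurin and M-band proteins had a median of -0.20. The titin-bound ubiquitin ligase Trim63 was at 138, 129.7 and 139 FPKM against 103 and 99.6 FPKM (adjusted p = 0.191, limma). Capn3, a protease that binds titin, was at 52.6, 52.9 and 53.1 FPKM against 44.6 and 43.9 FPKM (adjusted p = 0.351, limma), and Myom2, an M-band crosslinker, had a log2 fold change of -0.39 (adjusted p = 0.295, limma). In these 3 genes the groups did not overlap.

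Genes with the most similar pattern were found by the root-mean-square distance of centred log2 values over the 5 libraries, among the 663 genes averaging 100 FPKM or more. For Actn3 they included Prxl2b (distance 0.0961) and Myl1 (0.139), a fast myosin light chain. Prxl2b was at 158, 114 and 115 FPKM in WT control and 87.6 and 75.8 FPKM in the libraries labelled skmNrip1-/-. For Actn2 they were Lmod2 (0.123), an actin nucleator of the thin filament, Gsn (0.123), which severs actin, and Dcn (0.158), a matrix proteoglycan. The median distance of the genes compared was 0.405 for Actn3 and 0.407 for Actn2.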

How the data were processed

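RNA of TA muscle was sequenced as paired reads from 3 WT control and 2 skmNrip1-/- libraries, grouped by their labels. The legend for this experiment names 3 mice in each group, while the data used here held 2 skmNrip1-/- libraries. Per the submitters' processing notes the authors used Salmon 1.10.2 and DESeq2 1.44.0, with mm10. The authors deposited FPKM per gene and library, and how they computed FPKM is not given in the sources used here. The 2 deposited columns of the authors' own comparison, holding log2 fold changes with their adjusted p-values, were not used. The fragments per library are unknown, so precision rests on the spread between libraries.

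Differences were fitted here with limma 3.58.1 in R 4.3.3 on log2(FPKM + 0.1) with lmFit and trended eBayes, without covariates. The 12148 genes averaging 0.5 FPKM or more entered the Benjamini-Hochberg adjustment. Fold changes are on that log2 scale. The step was tested on simulated data. Tables and figures used Python 3.11.15, pandas 2.3.3, numpy 2.4.6, scipy 1.17.1 and matplotlib 3.10.9. Alternatives changed the pseudocount, the minimum level, the scaling, the variance model, the thresholds, a block and the libraries included. Positions are from GENCODE M21 (GRCm38), with 62 of 62 listed genes matched, and no member shares exon bases with another gene. RefSeq promoter windows matched 5 of 10 members.

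The members and lists were chosen with earlier results of these data known. Besides the members and Nrip1, each list names its genes with an unadjusted p of 0.05 or less, otherwise its extremes, and 3 genes nearest in pattern to each alpha-actinin, of which 1 is not reported here. Other genes were named after their values were seen.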

Additional observations from a re-analysis of the deposited data

How the results depend on the processing

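No member passed the test under the alternatives run except Actn3 under TPM, the 1 member called lower there. Over all genes, 45 were called higher and 10 lower, and the lower calls were 63 under TPM. Rescaling by the median of ratios left 45 and 10, since the deposited values were already matched by that median. Calls were 22 higher and 3 lower without the trend, and 14 higher and 3 lower at an adjusted p of 0.01. Leaving out 1 library gave 6 to 55 higher and 3 to 16 lower. Replicate numbers are shared by 2 pairs of libraries, whose deviations correlated at 0.06 and 0.1, so the numbers were not taken to pair animals. With the replicate as a block, 18 were higher and 4 lower, and Ankrd2 was at 0.18. In that fit WT control replicate 3 was alone in its block, so the fold changes equal those without that library. The members' median log2 fold change of -0.26 was -0.56 under TPM, -0.32 to -0.21 with 1 library left out, and -0.11 without Csrp3, Ankrd2 and Myoz2, an alternative chosen after seeing the data. Without 1 library, the Actn3 share differed by -13.7 to -7.04 percentage points and the Myoz2 share by -3.63 to -0.535.

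With 1 library left out, log2 fold changes ranged from -0.073 to 0.43 for Actn2, -0.23 to 0.014 for Myoz3, -0.080 to 0.13 for Tcap, -0.79 to 0.18 for Ankrd2 and -0.026 to 0.10 for Ankrd23. Under TPM, which moved the median of all genes by -0.29, Actn2 was at -0.13, Tcap at -0.27 and Ankrd23 at -0.26, each moved by about as much. Signs turned without WT control replicate 1 for Actn2 and Ankrd23, without replicate 2 for Tcap and without replicate 3 for Ankrd2, and without skmNrip1-/- replicate 1 for Tcap and Myoz3 and replicate 2 for Ankrd23. The cause of the turns without 1 library was not tested. Nrip1 also lost its call without the trend and with the block, which is not independent of leaving out WT control replicate 3. With fragments unknown, no limit from depth can be stated.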

Other observations

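Slow myosin light chains differed in direction, and these genes were named after their values were seen. Myl2, the regulatory light chain of slow fibers and heart, was at 2.03, 1.85 and 9.68 FPKM in the WT control libraries and 42.1 and 33.6 FPKM in those labelled skmNrip1-/-, with an adjusted p of 0.127 (limma). Myl3, the essential light chain of the same fibers, was at 89.6, 124 and 285 FPKM against 54.1 and 71.3 FPKM, with an adjusted p of 0.359 (limma). Neither passed the test. The groups did not overlap in either gene, and WT control replicate 3 was the highest WT control library in both.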
